A study of Homo sapiens with 32 samples.

Results

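The comparison described here is the change in N6-methyladenosine (m6A) between undifferentiated human embryonic stem cells (stage S0) and cells at the pancreatic progenitor stage (S4). All libraries labelled S0 or S4 were taken, which are 16 of the 32 libraries of the series, 8 at each stage. The cells were H1 and MEL1, established lines of human embryonic stem cells, kept undifferentiated at S0 or carried by stepwise differentiation to S4, with 2 replicates for every line and stage. From each of these 8 RNA preparations, messenger RNA was sequenced as an input library and as a library of fragments bound by an m6A antibody (IP). The paper counts them as independent biological samples, while the labels do not say whether they were separate differentiations, so p-values measure only the spread between these preparations.

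m6A is a common internal modification of messenger RNA. A nuclear methyltransferase complex deposits it on nascent transcripts, and its presence can shorten the life of a transcript in the cytoplasm. In stem cells it is known for its place on the transcripts of developmental regulators, whose turnover it can speed as cells leave pluripotency.

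The values are read counts in 26104 merged peaks of 7986 genes from the deposited table, in which a peak is given by its position along its gene. A peak is called methylated more or less by the ratio of its IP reads to its input reads, with IP and input normalised separately, and this log2 IP over input is called enrichment below. The 8 input libraries held 2652830 to 6879256 reads. The IP libraries held 11274108 and 14273753 reads in H1 S0, 12452146 and 14928825 in MEL1 S0, 11661733 and 13999180 in H1 S4, but 2483580 and 2378881 in MEL1 S4. The shallow MEL1 S4 IP libraries had no read in 23.7% and 21.4% of peaks, against 5.86% and 11.1% in MEL1 S0. In H1 the shares were 1.90% and 1.27% at S0 and 13.8% and 8.77% at S4.

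The share of mitochondrial reads moved with stage and line. In the input it was 27.0% and 26.4% in H1 S0, 41.0% and 32.5% in MEL1 S0, 17.7% and 15.4% in H1 S4 and 16.5% and 15.7% in MEL1 S4. In the IP it was 2.25% and 1.96% in H1 S0 and 0.0465% and 0.051% in H1 S4, while MEL1 held 0.602% and 0.574% at S0 and 0.442% and 0.388% at S4. The exact 95% binomial intervals of these shares, which cover counting error only, were narrower than the gaps between the H1 stages (0.0453% to 0.0478% in H1 S4 replicate 1). Mitochondrial transcripts, which are little bound by the antibody, thus had an enrichment of -3.58 and -3.74 in H1 S0 and -7.92 and -7.57 in H1 S4, but -6.70 and -6.05 in MEL1 S0 and -5.45 and -5.62 in MEL1 S4. The separation of bound from unbound RNA was therefore not the same in the 4 groups, and its part in the changes below was not tested.

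**Figure D1:**
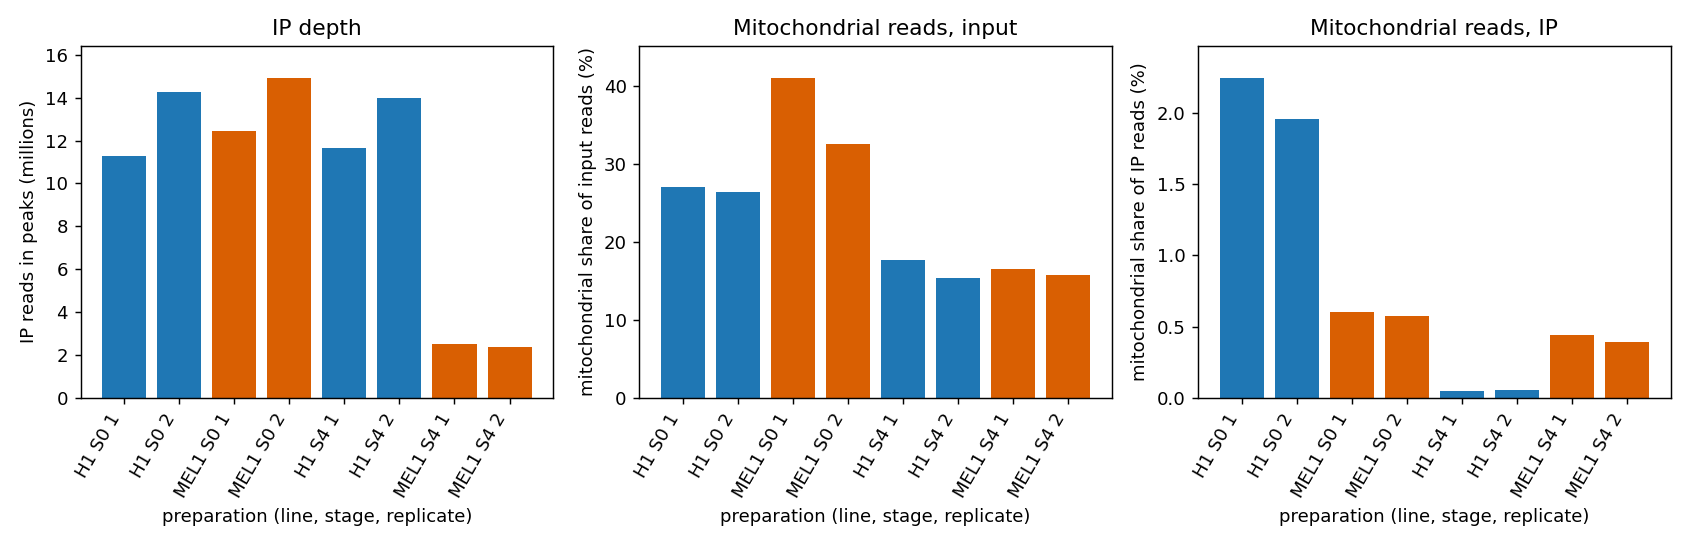
IP reads in peaks and the mitochondrial share (percent) of input and IP reads in each of the 8 preparations, H1 in blue and MEL1 in orange. The MEL1 S4 IP libraries are the shallowest, with 2483580 and 2378881 reads, and the mitochondrial share of the H1 IP falls from 2.25% and 1.96% at S0 to 0.0465% and 0.051% at S4.

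The stage label was checked on markers in the input libraries, with the level of a gene taken as the sum over its peaks in CPM (counts scaled to library size). PDX1, the transcription factor that defines pancreatic progenitors, was at 0.145 to 0.657 at S0, 24.9 and 26.9 in H1 S4, and 15.1 and 15.6 in MEL1 S4. FOXA2, an endoderm factor, was at 2.05 to 4.35 at S0 and 217 to 235 in the 4 S4 preparations. Both markers were low in all 4 S0 and high in all 4 S4 preparations. Of 18 pancreatic progenitor genes with peaks, 9 were higher at S4 and 1 lower. The 18 genes summed to 1770 and 2230 CPM in H1 S4 against 708 and 680 in H1 S0. In MEL1 they summed to 717 and 691 at S4 against 510 and 502 at S0. Over all genes, 1288 of 7954 were higher in the input at S4 (16.2%) and 1064 were lower (13.4%), by the same thresholds as for m6A below.

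The S4 preparations of the lines were not alike in markers of other cell types. The 9 hepatic and intestinal genes with peaks summed to 68400 and 70300 CPM in MEL1 S4, 290 and 255 in H1 S4 and at most 27.6 at S0, and all 9 were called higher at S4. AFP, a fetal liver protein and the most abundant of them in MEL1 S4, was at 20200 and 24000 in MEL1 S4, at 8.31 and 7.38 in H1 S4, and at 0 in both H1 S0 libraries. The 12 neural and neural crest genes, led by NES, summed to 3640 and 3660 in H1 S4 against 1270 and 1280 in H1 S0, but to 772 and 648 in MEL1 S4 against 1590 and 1740 in MEL1 S0. SOX2, a pluripotency and neural factor, was at 1440 and 1480 in H1 S4 against 1260 and 1270 in H1 S0, and at 163 and 185 in MEL1 S4 against 763 and 836 in MEL1 S0. The 17 pluripotency genes summed to 5030 to 5280 at S0, 3180 and 3160 in H1 S4 and 724 and 725 in MEL1 S4, and 13 of them were lower at S4. In bulk RNA, fewer cells of a type and less RNA per cell cannot be told apart, and the part of these other cell types in the m6A changes was not tested.

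The 5 endocrine genes with peaks summed to 1130 to 1400 at S4 and 50.4 to 266 at S0, with 4 called higher. INS-IGF2, which overlaps IGF2 and so is uncertain, was the most abundant of them in MEL1 S4, at 1010 and 1120 CPM, and CHGA in H1 S4, at 725 and 669. The 8 mesenchymal and mesodermal genes, led by COL1A1, summed to 820 and 754 in MEL1 S4, 130 and 196 in H1 S4 and 257 to 331 at S0, with 4 higher and 1 lower. The 3 endothelial and blood genes, led by FLT1, were at 10.4 to 72.4 at S4 and 73.0 to 91.7 at S0, with 2 lower.

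**Figure D2:**
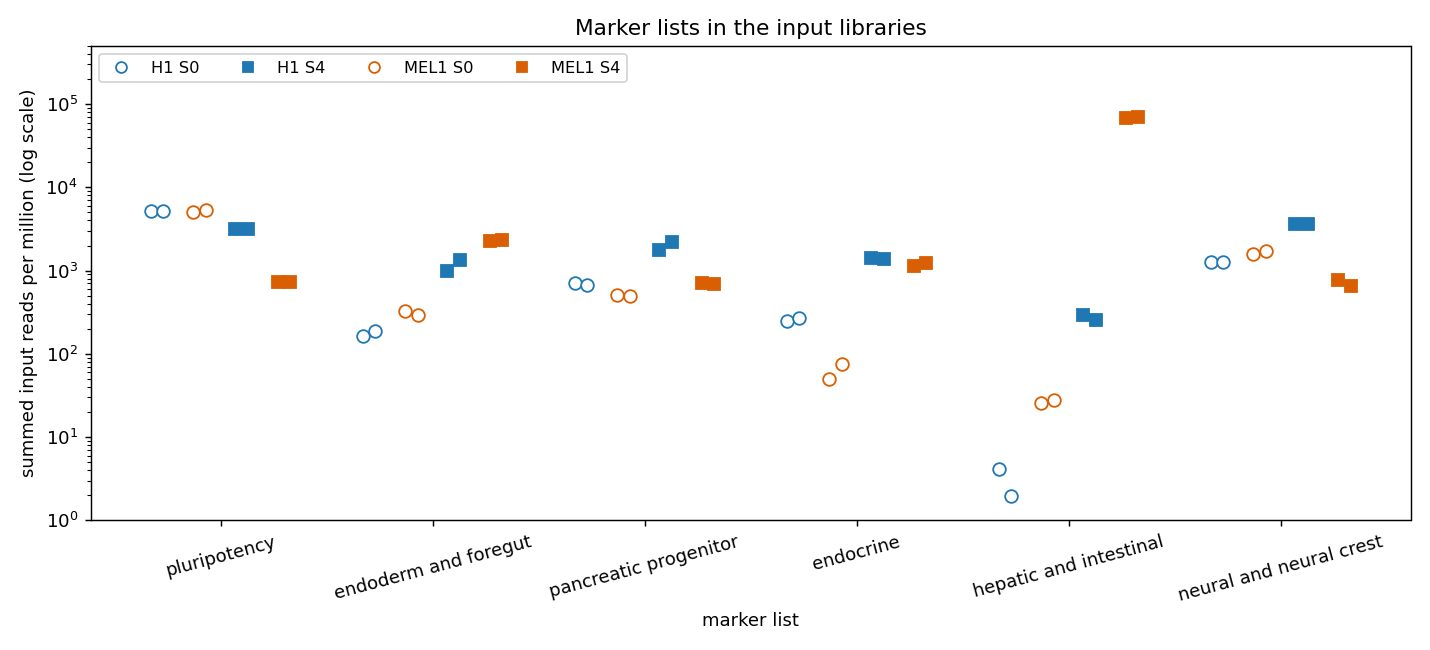
Summed input CPM (log scale) of 6 marker lists, 1 point per preparation, S0 as open circles and S4 as filled squares, H1 in blue and MEL1 in orange. The hepatic and intestinal list stands at 68400 and 70300 in MEL1 S4 and at 290 and 255 in H1 S4, and the endoderm and foregut list is higher at S4 than at S0 in both lines.

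m6A was gained at S4 in 174 of 26104 peaks (0.667%) of 153 genes and lost in 730 (2.80%) of 641 genes. A call needed a false discovery rate below 0.1 in edgeR (Benjamini-Hochberg, quasi-likelihood F-test) and 2-fold or more. Of these, 143 gains (0.548% of all peaks) in 124 genes and 650 losses (2.49%) in 569 genes had a fitted change of at least 2-fold in the same direction in each line. Of these, 115 gains and 497 losses had at least 10 input reads in each line at each stage. In the others a line can lack a measured change, as in ZNF503, AFP, VTN, APOB, RARB and POU3F2. A line with input but no IP read at either stage, as MEL1 in LIN28A, also lacks one. Both S4 preparations lay above both S0 preparations within each line in 1255 peaks (4.81%) and below them in 3003 (11.5%), which hold 133 of the gains and 588 of the losses, as selection by the change favours. Over all peaks the median was -0.31 on the log2 scale (H1 -0.38, MEL1 -0.23; -0.72 with library totals and 0.01 with quantile-normalised ratios), and changes below are given as fitted, beside this median.

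The number of calls rested on single preparations. Without H1 S0 replicate 1, 11 gains and 36 losses were called in both lines, without H1 S0 replicate 2 13 and 36, without H1 S4 replicate 1 15 and 54, without H1 S4 replicate 2 35 and 178, and without MEL1 S0 replicate 2 39 and 179. Without MEL1 S0 replicate 1 there were 403 gains and 863 losses, without MEL1 S4 replicate 1 235 and 1036, and without MEL1 S4 replicate 2 216 and 1043. With a replicate block per RNA preparation 109 gains and 270 losses were called in all. Scaling by library totals gave 110 gains and 1693 losses before the requirement on both lines, DESeq2 with joint size factors 990 and 1368, and quantile-normalised ratios 385 and 268. Gains were 19.2% of calls here, 6.1% with library totals, 42.0% with DESeq2 and joint factors (28.4% with separate ones) and 59.0% with limma on quantile-normalised ratios (24.6% without that step).

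Fitted in the same model, H1 had 1522 gains (5.83%) and 4091 losses (15.7%) and MEL1 260 gains (0.996%) and 503 losses (1.93%). Only 65 gains and 147 losses passed the threshold in each line separately, and 63 peaks passed it in opposite directions. Of the H1 gains 56.3% were also higher in MEL1, against 42.9% of all peaks, and of the H1 losses 60.7% were lower in MEL1, against 57.1% of all peaks. The correlation of the H1 and the MEL1 change across all 26104 peaks was 0.07, and peaks are not independent replicates. The lines shared no library.

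**Figure D3:**
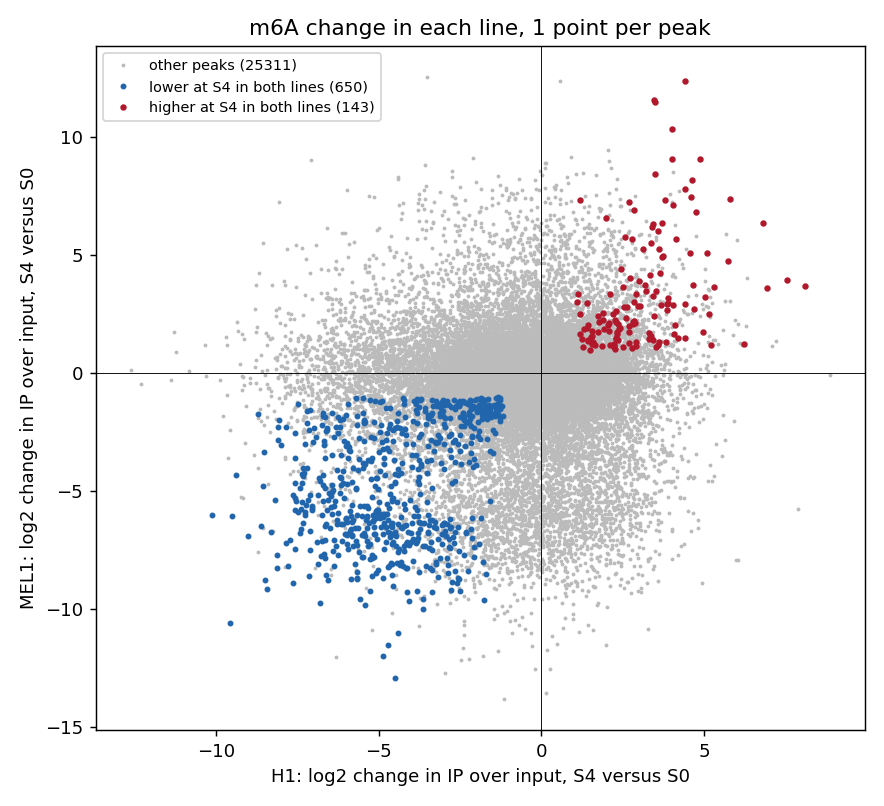
Log2 change in IP over input from S0 to S4 in H1 (horizontal axis) and MEL1 (vertical axis), 1 point per peak, with the 143 peaks higher in both lines in red, the 650 lower in both in blue and the rest in grey. The grey cloud shows little relation between the lines, with a correlation of 0.07 over all peaks.

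The gain with the smallest p was in IHH, a Hedgehog ligand of foregut endoderm. Its peak at position 574 had an enrichment of -1.99 and -1.63 in H1 S0, -1.60 and -1.04 in MEL1 S0, 3.97 and 3.73 in H1 S4 and 3.55 and 3.38 in MEL1 S4. All 4 S4 preparations lay above all 4 S0 preparations, and the log2 change was 5.14 (standard error 0.44, adjusted p = 3.06e-05 in edgeR, n = 4 preparations per stage). The IP reads behind these values were 4 to 51 at S0 and 1591 to 3213 at S4, and the IHH transcript itself was higher at S4 by 3.43 on the log2 scale.

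Genes of endoderm and foregut held gains in 6 of their 57 peaks (10.5% against 0.548% of all peaks) and no loss, with a median change of 0.27 over the list. Of the 57 peaks, 21 had no measured change in H1 and 10 had none in MEL1. The 5 genes with these gains, FOXA2, FOXA1, TBX3, GATA6 and IHH, are also among the transcripts that the study names with methylation. The study named them on these samples, so the share is not independent evidence. FOXA2, a pioneer factor of endoderm, had an enrichment of -3.23 and -0.98 in H1 S0, -0.90 and 0.09 in MEL1 S0, 2.11 and 2.32 in H1 S4 and 1.59 and 1.70 in MEL1 S4 at position 604, a log2 change of 3.05 (standard error 0.50, adjusted p = 0.00889 in edgeR). The other 5 peaks of FOXA2 were not called, its 6 peaks had changes of -2.20 to 3.05, and the difference between peaks was not tested. GATA6, a factor of endoderm and early pancreas, had an enrichment of -0.83 to -0.23 at S0 and 1.95 to 3.49 at S4 at position 2251 (log2 change 2.95, standard error 0.57, adjusted p = 0.0224 in edgeR). FOXA1, a relative of FOXA2, gained at positions 1983 (log2 change 3.46) and 2433, where 2 and 1 IP reads at S0 gave a ratio of 46.0-fold in H1 (counting interval 12.7 to 380) and 17.5-fold in MEL1 (3.15 to 692). TBX3, a T-box factor, had no IP read at S0 and 236 at S4 at position 1651 and so was at least 2.95-fold higher in H1 and 18.2-fold in MEL1. These factors were almost silent at S0, with 17 input reads over the 4 S0 libraries for the GATA6 peak, 12 and 6 for the FOXA1 peaks and 8 for TBX3, so their S0 ratio rests on few reads. Of the 21 genes of the list, 17 were higher in the input at S4 and none was lower.

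Among pancreatic progenitor genes, 1 of 80 peaks gained and 2 lost m6A (1.25% and 2.50%, against 0.548% and 2.49% of all peaks). The median change was -0.57, with -1.14 in H1 and 0.22 in MEL1. MNX1, a homeobox factor of the pancreatic bud, gained at position 403, with 3 IP reads at S0 and 973 at S4 in H1 (25.5-fold, counting interval 8.71 to 123) and 0 and 20 in MEL1 (at least 5.33-fold). These S0 ratios also rest on 3 input reads in each line, which the counting interval, drawn from the IP reads alone here and elsewhere, does not cover. HES1, the Notch target that holds progenitors undifferentiated, lost m6A at position 101 (log2 change -2.79, standard error 0.81, adjusted p = 0.0923 in edgeR), where enrichment fell from -2.18 and -1.99 to -6.36 and -6.88 in H1 and from -0.21 and 0.58 to -0.47 and -2.72 in MEL1. ONECUT2, a factor of liver and pancreas progenitors, lost at position 8901 with 14 input reads at S0 (log2 change -3.78). The HES1 call was kept in 14 of 31 alternatives and the ONECUT2 call in 13 of 30. PDX1 did not pass the test at its deepest peak, position 651, where IP reads were 0 and 0 in H1 S0, 1 and 3 in MEL1 S0, 1033 and 1234 in H1 S4 and 145 and 51 in MEL1 S4, over 3 input reads in all S0 libraries together (adjusted p = 0.128 in edgeR). HNF4A, a factor of foregut and liver, was not called either (adjusted p = 0.35 in edgeR), with 16 input reads at S0.

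SOX9, a factor of progenitors in the pancreatic bud, went in opposite directions in the lines. At position 1951 its enrichment was 3.72 and 3.32 in H1 S0, 1.67 and 1.70 in H1 S4, 0.57 and 1.54 in MEL1 S0 and 3.25 and 2.80 in MEL1 S4. H1 thus fell by 1.86 and MEL1 rose by 1.93 on the log2 scale, and the difference of 3.79 had an adjusted p of 0.0032 (standard error 0.63, edgeR's test of line by stage by library type), while the change over both lines was 0.02.

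Of the 19 transcripts that the study names in connection with methylation and that had peaks, 8 had a gain and 3 a loss. These were in 9 and 6 of 87 peaks (10.3% and 6.90%, against 0.548% and 2.49% of all peaks). The median change was 0.66 (H1 0.54, MEL1 0.55). With peaks without IP reads at a stage set to their bound it was 0.28. With bounds within the line it was 0.53 in H1 and 0.35 in MEL1. This list was drawn up by the study on these samples and is not independent evidence of a direction. ACADVL, an enzyme of mitochondrial fatty acid oxidation, gained at position 2101, where enrichment was -2.09 and -2.21 in H1 S0, -3.32 and -2.83 in MEL1 S0, 1.68 and 1.77 in H1 S4 and -0.17 and -0.14 in MEL1 S4. The S4 preparations of each line lay well above its S0 preparations, and the log2 change was 3.39 (standard error 0.45, adjusted p = 0.00285 in edgeR), with 4 other ACADVL peaks not called.

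TRO, which encodes the adhesion protein trophinin, held changes in both directions along 1 transcript. At position 901 its enrichment was 1.57 and 1.77 in H1 S0, 0.53 and 1.14 in MEL1 S0, -1.25 and -1.86 in H1 S4 and -2.14 and -2.03 in MEL1 S4 (log2 change -3.08, standard error 0.45, adjusted p = 0.00416 in edgeR). Positions 1251 and 1901 were also lower, by log2 changes of -1.55 and -3.40, while position 4051 was higher, at -1.62, -1.08, -0.68 and -2.39 in the S0 and 2.25, 2.32, -0.38 and -0.11 in the S4 preparations (log2 change 2.49, adjusted p = 0.0311 in edgeR). JPT2, a calcium-signalling protein, lost at positions 601 and 3751. The first had 275 IP reads at S0 and none at S4, at least 5.77-fold lower in H1 and 23.7-fold in MEL1, and the second 271 and 1, 32.9-fold lower in H1 (counting interval 5.91 to 1300) and at least 9.03-fold in MEL1. NECTIN1, an adhesion molecule, had no IP read at S4 and 61 at S0 at position 6702 and was at least 3.13-fold lower in H1 and 1.98-fold in MEL1. The endoderm factor GATA4, the centrosome protein PCNT, the vesicle GTPase RAB10 and the phospholipase PLCE1 had no called peak.

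RBFOX2, an RNA-binding regulator of alternative splicing, had gains in 3 of its 5 peaks. At position 7865 its enrichment was -1.54 and -1.45 in H1 S0, -1.61 and -2.02 in MEL1 S0, 3.23 and 3.54 in H1 S4 and 7.56 and 6.88 in MEL1 S4, a log2 change of 6.98 (standard error 0.92, adjusted p = 0.0026 in edgeR). The input of RBFOX2 was level between the stages (log2 change 0.04, adjusted p = 0.891 in edgeR), with 1160 reads at S0 and 964 at S4 in this peak. In MEL1 S4 the peak alone took 1.03% and 0.651% of all IP reads, against 0.0491% and 0.058% in H1 S4, and the gain was larger in MEL1 by 4.19 (standard error 0.42, adjusted p = 2.64e-05 in edgeR's test of the difference).

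ZNF503, a zinc finger corepressor of development, had 27945 and 17590 IP reads in H1 S4 and 16 and 23 in H1 S0 at position 1998, with enrichments of 7.13 and 6.17 against -0.02 and -1.29. In MEL1 the same peak had 40 and 88 IP reads at S4 and none at S0, over 8 input reads at S4 and none at S0, so only H1 measured this gain (log2 change over both lines 7.26, adjusted p = 0.00164 in edgeR). TCF3, an E-protein transcription factor, rose from -4.08, -4.01, -5.32 and -7.20 at S0 to -0.65, -1.06, -2.15 and -2.96 at S4, which is a smaller depletion in the IP rather than an enrichment (log2 change 3.29, adjusted p = 0.00646 in edgeR). TMEM132C, a transmembrane protein, rose from 0.54, 1.38, 2.44 and 1.79 to 4.70, 4.00, 4.50 and 3.30 (log2 change 2.60, adjusted p = 0.0185 in edgeR). Its MEL1 S0 values rest on 2 and 3 input reads, and its log2 change in MEL1 was 1.54 (adjusted p = 0.344 in edgeR). This TMEM132C call was lost without H1 S0 replicate 1, without H1 S0 replicate 2 and without H1 S4 replicate 1, with adjusted p-values of 0.205, 0.129 and 0.129 in edgeR and log2 changes of 2.14, 2.60 and 2.31.

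CDC123, GOLGA8A and RN7SL5P complete the 10 gains of smallest p. CDC123, a factor in assembly of the translation initiation factor eIF2, went from -4.83, -4.57, -8.18 and -9.64 at S0 to -0.37, -0.13, -5.76 and -5.78 at S4 and rested in MEL1 on 1 or 2 IP reads per library. GOLGA8A, a golgin gene with near-identical copies, gained in 5 of its 10 peaks, and at position 2351 went from -4.59, -3.36, -8.18 and -8.50 to -0.17, -0.14, -2.83 and -3.06. MEL1 had no IP read there at S0 and 14 in each library at S4, so its S0 values come from the prior count. RN7SL5P, a copy of the 7SL RNA, went from -6.40, -6.84, -7.30 and -7.13 to -2.97, -2.71, 2.35 and 1.48. Reads of both can be shared with their copies, so their changes are uncertain. RN7SL5P had 2 IP reads at S0 and 22 at S4 in H1 (20.5-fold, counting interval 5.69 to 170) and 0 and 136 in MEL1 (at least 217-fold), so the size of its gain differed between the lines.

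**Figure D4:**
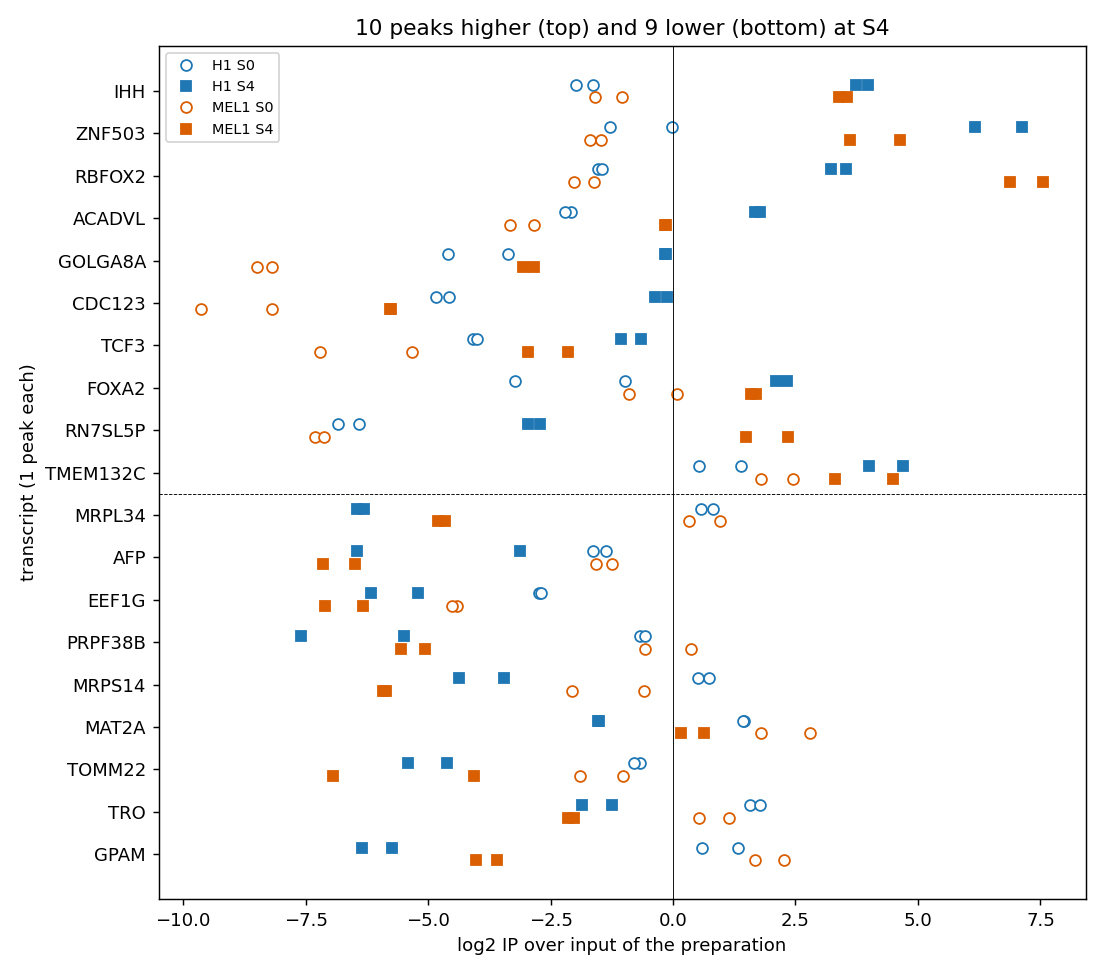
Log2 IP over input in each of the 8 preparations for the 10 gains of smallest p (above the dashed line) and 9 of the 10 losses of smallest p (below it), S0 as open circles and S4 as filled squares, H1 in blue and MEL1 in orange. Within each line the plotted S4 values lie beyond the S0 values in all peaks shown, as the rule for naming them required. RBFOX2 reaches 7.56 and 6.88 in MEL1 S4. Points without an IP read are placed by the prior count. Such points include GOLGA8A and RN7SL5P in MEL1 S0, MRPL34 and GPAM at S4, and PRPF38B and MRPS14 in MEL1 S4. ZNF503 in MEL1 S0 and AFP in H1 S0 had neither IP nor input reads, so those lines measured no separation there.

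Of the 650 losses in both lines, 227 (34.9%) had no IP read in any S4 library and 392 had 10 or fewer, which selection by a low S4 IP favours. Named peaks with few IP reads at a stage are given with a counting interval or as fitted. Where a stage had no IP read, fold changes are lower bounds within each line. They are set against 3 reads over the 2 IP libraries of the line at the stage. With these bounds in place of the fitted values the median loss was -3.01 in H1 and -1.80 in MEL1 (-4.45 and -4.69 as fitted). In 165 of the 650 losses a line had a bound below 2-fold or no measured change, so there the fitted 2-fold loss in each line is not shown by the reads of that line. The median loss peak had 155.5 input reads at S0 and 102 at S4, and 309.5 IP reads at S0 and 3 at S4.

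MRPL34, a protein of the mitochondrial ribosome, had 195, 208, 248 and 394 IP reads in the S0 libraries and 0 in all 4 S4 libraries at position 1501, over 221 input reads at S0 and 69 at S4. It was at least 43.5-fold lower at S4 in H1 and 13.7-fold in MEL1 (adjusted p = 0.00164 in edgeR). MRPS14, of the same ribosome, had 75 to 328 IP reads at S0 and 0 to 7 at S4 at position 1945 (log2 change -4.87, standard error 0.69, adjusted p = 0.00416 in edgeR). TOMM22, the receptor of the translocase of the outer mitochondrial membrane, went from -0.68, -0.80, -1.89 and -1.03 at S0 to -4.61, -5.41, -4.06 and -6.95 at S4 (log2 change -4.05, adjusted p = 0.00416 in edgeR). GPAM, an outer mitochondrial membrane enzyme of glycerolipid synthesis, had 48, 58, 146 and 164 IP reads in the S0 libraries and none at S4 at position 3509, at least 43.4-fold lower in H1 and 17.6-fold in MEL1. These 4 genes of mitochondrial proteins are nuclear genes, picked out among the 10 losses after their values were seen.

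MAT2A, the enzyme that makes S-adenosylmethionine, the methyl donor of m6A, lost m6A at position 3951. Its enrichment was 1.44 and 1.43 in H1 S0, 1.79 and 2.79 in MEL1 S0, -1.52 and -1.54 in H1 S4 and 0.16 and 0.63 in MEL1 S4, a log2 change of -2.43 (standard error 0.35, adjusted p = 0.00416 in edgeR). The peak was deep, with 24822 IP reads at S0 and 1133 at S4 over 2152 and 1350 input reads. The fall was -2.96 in H1 and -1.90 in MEL1, the 4 MAT2A peaks had changes of -3.10 to -1.41, and 2 of them were called. MAT2A input was lower at S4 by a log2 change of -0.90, below the 2-fold threshold.

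PRPF38B, a splicing factor, had 126, 128, 106 and 248 IP reads in the S0 libraries and 2 in all at S4, both in H1 (66.3-fold, counting interval 18.3 to 547; at least 13.2-fold in MEL1). EEF1G, a translation elongation factor, was depleted in the IP at both stages, at -2.74, -2.69, -4.40 and -4.52 at S0 and -6.16, -5.21, -7.11 and -6.32 at S4, so its loss (log2 change -2.64, adjusted p = 0.00257 in edgeR) is a stronger depletion. AFP met the rule for a loss at position 701 with no IP or input read in H1 S0 and 24 IP reads over 21 input reads in MEL1 S0. At S4 it had 343 and 247 IP reads over 28205 and 36463 input reads in MEL1, an enrichment of -6.49 and -7.15. AFP messenger RNA was thus hardly bound by the antibody where it was abundant, and the S0 ratio behind the loss rests on a few reads of MEL1.

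Hepatic and intestinal genes held 7 losses and 1 gain in 34 peaks. Of these, 6 and 1 met the fitted rule in both lines (17.6% and 2.94%, against 2.49% and 0.548% of all peaks). The median change was -1.40, but 27 of the 34 peaks had no measured change in H1. With bounds the H1 median was 1.44 (-1.69 as fitted) and the MEL1 median -0.90 (-1.40 as fitted). All losses were in AFP and VTN, which encodes vitronectin. VTN had 12 input reads at S0 at position 78 and 22157 at S4, of which 9857 and 12166 were in the MEL1 libraries. No input or IP read of this peak was in H1 S0, so only MEL1 measured its loss. APOB, the apolipoprotein of liver and intestine, gained at position 1529, with 5 input reads at S0 and 672 at S4 and 3878 IP reads at S4 (log2 change 3.24, adjusted p = 0.0597 in edgeR). H1 had no input or IP read there at S0, so only MEL1 measured this gain.

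Of the m6A machinery, 19 genes had 92 peaks, with 2 gains and 5 losses, all in both lines (2.17% and 5.43%, against 0.548% and 2.49% of all peaks). The median change was -0.10, with -0.66 in H1 and 0.30 in MEL1. No list in this text was tested as a set. METTL16, a methyltransferase that acts on the U6 RNA and on MAT2A transcripts, changed both ways, with a gain at position 2785 and a loss at position 7335. At position 2785 its enrichment was -0.08, 0.08, -0.56 and -0.65 at S0 and 3.17, 2.70, 1.17 and 0.06 at S4 (log2 change 2.14, standard error 0.59, adjusted p = 0.0801 in edgeR), and at position 7335 it had 622 IP reads at S0 and none at S4, at least 2.22-fold lower in H1 and 8.84-fold in MEL1. Of these S0 reads 2 and 9 were in H1 and 304 and 307 in MEL1. The gain stayed called in 14 of 31 alternatives and the loss in 24. METTL16 input was lower at S4 by a log2 change of -1.28 (adjusted p = 0.00451 in edgeR), the only machinery gene called in the input. ZC3H13, a subunit of the writer complex, lost at positions 5016 and 8266 of its 12 peaks (log2 changes -3.76 and -3.39), calls kept in 13 of 31 and 16 of 30 alternatives. HNRNPC and IGF2BP1, RNA-binding proteins counted among the readers, lost in a peak each, with no IP read at S4, at least 11.5-fold and 5.33-fold lower in H1, while in MEL1 the bound was 3.69-fold for IGF2BP1 and below 2-fold for HNRNPC. PRRC2A, a reader, gained at position 201 with no IP read at S0 and 25 at S4, of which 13 and 12 came from 1 library in each line.

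The other 14 machinery genes had no called peak, and at their deepest peak the change relative to the median of all peaks ran from -1.22 to 1.71. Among them the lines differed in YTHDC1, the nuclear reader, which at position 6883 went from 1.14 and 0.74 to 4.11 and 3.59 in H1 and from 0.09 and -0.41 to 0.00 and -1.09 in MEL1 (difference -3.19, standard error 0.65, adjusted p = 0.0111 in edgeR). The lines also differed in CBLL1, a subunit of the writer complex (difference 3.22, adjusted p = 0.0202), ELAVL1, a stabiliser of AU-rich messages (3.53, adjusted p = 0.0749), and EIF3A, a translation initiation factor (-1.67, adjusted p = 0.0132), in the same edgeR test. YTHDF2, the reader that recruits decay factors, stayed enriched throughout, at 2.13, 2.13, 2.09 and 2.63 at S0 and 1.65, 1.65, 2.05 and 1.86 at S4 (log2 change -0.44, adjusted p = 0.587 in edgeR).

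In the Hedgehog pathway, whose ligand is IHH, 2 of 69 peaks gained (2.90%) and 1 lost (1.45%), against 0.548% and 2.49% of all peaks. The median change was -0.03, with -0.49 in H1 and 0.27 in MEL1. KIF7, a kinesin that regulates the pathway in cilia, gained at position 552 (log2 change 2.19, adjusted p = 0.0846 in edgeR), and SMO, the signal transducer, had 70 IP reads at S0 and none at S4 at position 4201, at least 9.22-fold lower in H1 and 1.85-fold in MEL1.

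Retinoic acid pathway genes held 2 gains (4.00%, against 0.548% of all peaks) and no loss in 50 peaks, with a median change of -0.35. NR2F1, a nuclear receptor induced by retinoic acid, rose from 0.62, 0.25, -1.02 and -1.01 at S0 to 4.08, 2.22, 3.49 and 3.44 at S4 at position 3301 (log2 change 3.33, standard error 0.71, adjusted p = 0.0358 in edgeR), while its input rose by 5.55. RARB, a retinoic acid receptor, had no IP read at S0 and 648 at S4 at position 601 and was at least 17.5-fold higher in H1, while MEL1 had no input read at S0.

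In the BMP, TGF-beta and activin pathway 4 of 80 peaks lost m6A, against 2.49% of all peaks, and none gained, with a median change of -0.42. SMAD5, which carries the BMP signal to the nucleus, held 3 of these losses among its 7 peaks. At position 4951 its enrichment was 1.62 and 1.78 in H1 S0, 1.56 and 1.34 in MEL1 S0, -3.67 and -2.41 in H1 S4 and -0.64 and -1.28 in MEL1 S4 (log2 change -3.50, standard error 0.59, adjusted p = 0.0107 in edgeR), with 3827 IP reads at S0 and 114 at S4. All 4 S4 preparations lay below all 4 S0 preparations, and the SMAD5 input had a log2 change of -0.44 (adjusted p = 0.0739 in edgeR). ID2, a target of BMP, lost at position 1301, from 0.75, 0.95, 0.49 and 1.70 to -5.99, -3.54, -1.33 and -1.91 (adjusted p = 0.0718 in edgeR), while its input rose by 1.66.

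FGF and receptor tyrosine kinase genes held 2 losses in 105 peaks, 1 of them in both lines (0.952%, below the 2.49% of all peaks), with a median change of -0.49. DUSP6, a phosphatase that restrains ERK, fell from 0.13, -0.06, -0.10 and 0.51 to -1.74, -1.01, -1.31 and -0.99 (log2 change -1.38, standard error 0.33, adjusted p = 0.0533 in edgeR). SOS1, the exchange factor that activates RAS, had a log2 change of -1.93 (adjusted p = 0.0626 in edgeR), short of 2-fold in MEL1.

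Wnt pathway genes held 1 gain and 4 losses in 148 peaks (0.676% and 2.70%, close to the 0.548% and 2.49% of all peaks), with a median change of 0.00. SFRP2, a secreted Wnt modulator, rose at position 683, a peak with 24630 input reads at S0, from -0.60, -0.64, -1.04 and -1.02 to 1.25, 1.25, 0.14 and 0.15 (log2 change 1.52, standard error 0.32, adjusted p = 0.0346 in edgeR). Its IP reads there went from 40794 to 20013 and its input reads to 6527, the SFRP2 input was called lower (-1.60), and with IP without input the change was -0.20. SFRP2 also fell at position 283, with 229 IP reads at S0 and 1 at S4, 36.8-fold lower in H1 (counting interval 6.60 to 1450) and at least 1.99-fold in MEL1. TCF7L1, a repressor of Wnt targets in stem cells, fell from -1.25, -1.32, -1.93 and -1.74 to -4.66, -4.38, -5.17 and -4.70 (log2 change -2.97, adjusted p = 0.063 in edgeR). MEL1 had no IP read there at S4, so its S4 values come from the prior count of 0.5. GSK3B, the kinase that marks beta-catenin for decay, had 78 IP reads at S0 and none at S4 at position 7257, at least 5.13-fold lower in H1 and 3.49-fold in MEL1, and BCL9, a coactivator of beta-catenin, had a log2 change of -2.06. In the Notch pathway 1 of 70 peaks was lost (1.43%, below the 2.49% of all peaks), in RFNG, a glycosyltransferase of Notch (log2 change -4.63, adjusted p = 0.0114 in edgeR), with a median change of -0.36. The loss in the Notch target HES1 was counted with the pancreatic progenitor genes and is not in this share.

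Chromatin regulators held 4 gains and 16 losses in 374 peaks, of which 4 and 14 were in both lines (1.07% and 3.74%, against 0.548% and 2.49% of all peaks). The median change was -0.21, with -0.44 in H1 and 0.12 in MEL1. ASXL1, a subunit of the polycomb deubiquitinase, rose at position 7851 from -1.17, -0.53, -0.86 and -1.70 to 1.26, 1.62, 1.20 and 1.65 (log2 change 2.36, standard error 0.59, adjusted p = 0.0593 in edgeR). EHMT2, a histone H3 lysine methyltransferase, and CHD3, a remodeller of the NuRD complex, had log2 changes of 2.39 and 3.14. ARID2, a subunit of the PBAF remodeller, fell from 2.23, 1.67, 0.76 and 1.22 to -0.81, -0.10, -1.37 and -0.81 at position 6651 (log2 change -2.20, standard error 0.46, adjusted p = 0.0327 in edgeR). BAZ2A, of the nucleolar remodelling complex, had a log2 change of -1.75, and BPTF, of the NURF remodeller, was at least 10.8-fold lower in H1 and 1.16-fold in MEL1.

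The shares of all peaks called in both lines, 0.548% for gains and 2.49% for losses, also stand beside the lists that follow. Of 73 peaks of pluripotency genes 1 gained (1.37%) and 1 was lost over both lines together. The median change was 0.27, with 0.09 in H1 and -0.21 in MEL1. LIN28A, an RNA-binding protein of stem cells, gained at position 3001 on 3 IP reads at S0 and 19 at S4, all in H1 (16.5-fold there, counting interval 5.64 to 79.9). SOX2 was called lower at position 2401, where MEL1 S4 had neither an input nor an IP read, so that the loss, at least 56.9-fold, was measured in H1 alone. Endocrine genes had 1 loss in 14 peaks (7.14%), in CHGA, a granule protein (log2 change -2.83, adjusted p = 0.0311 in edgeR), at position 2751, while its other 3 peaks were not called. Mesenchymal and mesodermal genes had 1 loss in 27 peaks (3.70%), in TWIST1, a mesodermal factor, on 3 input reads at S0, and neural and neural crest genes 1 gain in 37 (2.70%), in POU3F2, a neural factor, on 9. Endothelial and blood genes had no call in 9 peaks at this threshold. The median changes of these 4 lists were -0.66, -0.27, 0.31 and -0.80. In the same order they were -0.13, 0.04, 0.85 and -1.20 in H1 and -0.99, -0.37, -0.55 and -0.14 in MEL1.

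Of the members, 45 of the 143 gains and 131 of the 650 losses in both lines had a mean enrichment above 0 over the 8 preparations. They were 31.5% of the gains and 20.2% of the losses, against 51.4% of all peaks. With peaks split into 5 groups by this mean, gains in both lines made up 0.919% of the lowest group and 0.211% of the highest. Losses made up 6.78% and 0.804%. The called change is part of this mean, relative to S0 raising it in gains and lowering it in losses, so the 2 are not independent.

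Position along the transcript was compared without a test. In genes with at least 2 peaks, the last peak of the gene held 21.1% of the gains and 21.2% of the losses against 23.8% of all peaks, and the first peak 15.6% and 24.7% against 23.8%. The median gene of gains, losses and all peaks had 5 peaks. Of the 124 genes with a gain and the 569 with a loss in both lines, 8 held both. For expression, 43 of the 143 gains (30.1%) lay in genes higher in the input at S4 and 20 (14.0%) in genes that were lower, against 17.5% and 13.1% of all peaks. Of the 650 losses 48 (7.38%) lay in genes higher at S4 and 162 (24.9%) in genes that were lower. Input is part of both measures, so the 2 are not independent.

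The change differed between H1 and MEL1 in 2479 of 26104 peaks (9.50%) at an adjusted p under 0.1 in edgeR, with 1659 changes higher in MEL1 and 820 lower. In 1948 of them the lines had opposite signs. Without H1 S0 replicate 1 289 peaks differed, without H1 S0 replicate 2 297, without H1 S4 replicate 1 1152 and without MEL1 S0 replicate 2 4258. The 3 genes of smallest p were mitochondrial, MT-CO1, MT-RNR2 and MT-ND1, and 45 of the 47 mitochondrial peaks differed. In MT-CO1, a subunit of cytochrome c oxidase, enrichment went from -4.39 and -4.55 to -9.42 and -8.87 in H1 and from -8.65 and -7.97 to -7.07 and -7.04 in MEL1 (difference 5.98, adjusted p = 1.63e-06 in edgeR). MT-ND2 and MT-ND5, subunits of complex I, were called lower over both lines, with log2 changes of -4.47 and -2.41. The MT-ND2 values of MEL1 overlapped between the stages (-6.10 and -4.73 at S0, -9.13 and -5.86 at S4). The 47 mitochondrial peaks had a median change of -1.84, with -4.38 in H1 and 0.61 in MEL1.

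The same peaks were read at S3, the posterior foregut stage before S4, and at S6, the immature beta-like stage after it, with ratios scaled over all 32 libraries. S0 and S4 chose the members, so their values there are no test, and the values at S3 and S6 are given beside them. In the order S0, S3, S4, S6 the median enrichment was -2.55, -1.91, 0.00 and -1.70 for the 143 gains and -0.79, -1.85, -4.40 and -2.18 for the 650 losses. The 131 losses with a mean enrichment above 0 stood at 2.49, 1.64, -0.28 and 1.77. The medians at S6 lay between those at S0 and S4, while single members lay outside that range, as MRPS14 did (-0.42 at S0, -4.92 at S4 and 0.27 at S6).

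Some gains were high from S3 onwards. IHH stood at 4.25 (SD 0.56, n = 4 preparations) at S3, 3.64 (SD 0.18) at S4 and 4.49 (SD 0.25) at S6, FOXA2 at 2.12, 1.91 and 1.63, GATA6 at 2.78, 2.52 and 2.22, and FOXA1 at position 1983 at 2.65, 1.88 and 2.55. NR2F1, outside the endoderm list, stood at 2.82, 3.29 and 3.63, and MNX1 at 1.91, 1.84 and 1.75. RBFOX2 at position 7865 went -1.72, -4.14, 5.28 and -1.85 over the stages, so its high value was seen at S4 alone among the 4 stages. MAT2A at position 3951 was at 1.79, -0.07, -0.59 and 0.00 in the same order, and SMAD5 at position 4951 at 1.51, 0.94, -2.02 and -0.01. The differences between S4 and the other differentiated stages were not tested.

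**Figure D5:**
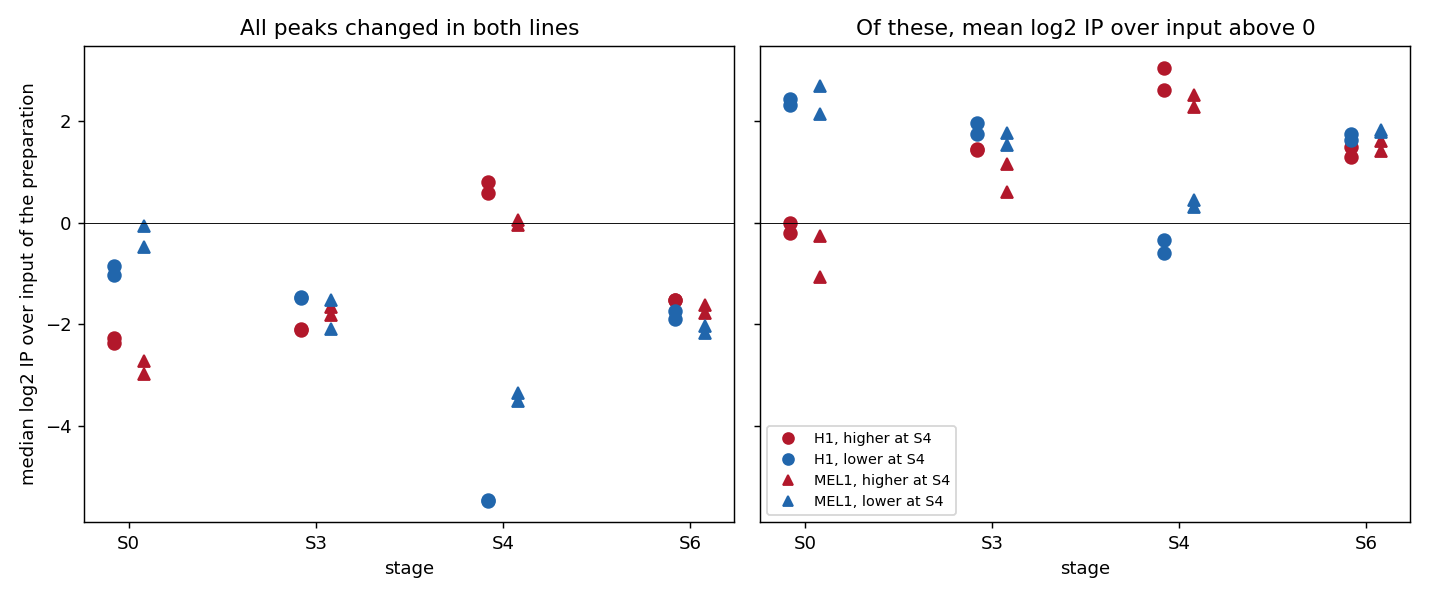
Median log2 IP over input of the peaks changed in both lines, for each preparation at S0, S3, S4 and S6, H1 as circles and MEL1 as triangles, peaks higher at S4 in red and lower in blue. The left panel shows all 143 and 650 peaks and the right panel the 45 and 131 with a mean above 0 over the S0 and S4 preparations. In both panels the S4 preparations stand furthest from S0, which the choice of peaks by their change from S0 to S4 favours.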

How the data were processed

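Raw read counts per merged peak were deposited by the authors, who counted reads in 50-bp bins of each gene (Ensembl annotation version 94) and called and merged peaks with MeRIPtools. The aligner and genome build are not given in the sources used here. Of the 7986 genes, 8 are second copies of a pseudoautosomal gene. Of the other 7978, 7596 have a symbol and 382 go by identifier, 40 of them absent from the table of names. The tools were R 4.3.3 (edgeR 4.0.16, limma 3.58.1, DESeq2 1.42.0) and, for figures, Python 3.11.15 (matplotlib 3.10.9). Peaks with at least 10 reads over the 16 libraries were tested, which kept all 26104. TMM factors were computed within IP and within input. edgeR's quasi-likelihood test was applied to the interaction of stage and library type, with a term for cell line by library type. This model had no term for cell line by stage, so it held the input change from S0 to S4 equal in H1 and MEL1. In genes whose input change differed between the lines, as AFP, the effect of this on the p-values was not tested. Changes per line, and their difference, came from a model of group means. A standard error is the log2 change divided by the square root of F. Enrichment per preparation used a prior count of 0.5. The input of a gene was the sum over its peaks, tested with edgeR with the cell line.

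The genes named were set by a rule. These are the 10 genes of smallest p for gain and for loss, 1 peak each, with at least 2-fold change in each line, both S4 preparations beyond both S0 preparations in each line and at least 10 input reads at each stage. To them were added the transcripts the study names with methylation, the m6A machinery, the called members of the other lists (where over 6, 3 gains and 3 losses), and 3 genes of smallest p for a line difference. Members and lists were chosen with earlier results of these data known.

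Input and IP of a preparation come from the same RNA, but their replicate deviations correlated at 0.10 and 0.01 in H1 S0 and S4 and at -0.33 and 0.15 in MEL1. The numbers of MEL1 S0 may thus be crossed between input and IP, which would change its enrichment values per preparation. Replicate libraries differed by more than sampling noise, with a chi-square per degree of freedom of 1.89 to 35.0. The tests were tried on simulated data. The alternatives were other tools, normalisations, filters, covariates, a replicate block, other samples, thinned IP, IP alone, a stricter threshold and each preparation left out.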

Additional observations from a re-analysis of the deposited data

Results flagged for a closer look

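The change in m6A from S0 to S4 differed between H1 and MEL1 in 2479 peaks by a test of the difference itself. The MEL1 minus H1 difference in the log2 change was 5.98 in MT-CO1, 5.04 in MT-RNR2 and 5.73 in MT-ND1, and among the 20 leading peaks it passed the threshold in RBFOX2, at 4.19, and in RN7SL5P, at 6.32. With IP thinned to the shallowest library, 1972 peaks differed, and with DESeq2 and separate size factors 4128. The count was 778 with a replicate block per RNA preparation, 475 with limma on ratios and 41 with limma on quantile-normalised ratios. The mitochondrial share of the IP reads also differed between the lines at S4, and its part in these differences was not tested.

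One value stood far from the others of its stage among 48 groups of 4 checked, of which chance picks about 1 in 20. It was the enrichment of PRPF38B in MEL1 S0 replicate 2, at 0.36, against -0.67, -0.57 and -0.58 in the other S0 preparations.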

How the results depend on the processing

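The peaks called in both lines kept their direction wherever they were tested, as selection by size favours, except 18 under IP without input. Filters left fewer to test, down to 115 gains and 497 losses with 10 input reads in each line at each stage. The counts did not keep their size. In the order gains, losses, gains in both lines, losses in both lines and line differences, against 174, 730, 143, 650 and 2479, they were 712, 1797, 537, 1345 and 4128 with DESeq2 and separate size factors, 990, 1368, 720, 1081 and 4064 with joint ones, and 3631, 4852, 2898, 3908 and 4847 with IP without input. At an adjusted p under 0.05 they were 43, 213, 42, 210 and 1344. Gains, losses, and gains and losses in both lines were 110, 1693, 90 and 1350 with library totals, 20, 173, 20 and 170 without the cell line, and 58, 341, 56 and 333 with the line additive only. H1 alone had 3460 gains and 6689 losses, MEL1 alone 28 and 20. With all 32 libraries there were 389 gains, 1136 losses, 280 gains in both lines and 5098 line differences. With IP thinned to the shallowest library, losses fell to 301, and to 280 in both lines. limma on ratios had 475 line differences. The cause was not tested. TMM over all libraries, RLE, upper quartile and the filters stayed within 1.5 times the counts.

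With a replicate block per RNA preparation there were 109 gains, 270 losses, 254 losses in both lines and 778 line differences. The paired fit changed no call among the 20 leading peaks. With the MEL1 S0 numbers crossed, the replicate block gave 340 gains and 845 losses, 242 and 670 of them in both lines, and limma on ratios 282 gains, all in both lines, and 917 line differences. These 2 alternatives, a filter of 10 input reads in each line at each stage, and limma on quantile-normalised ratios, with 385 gains and 268 losses, all in both lines, and 41 line differences, were chosen after seeing the data.

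In the leave-one-out fits, gains ran from 12 to 470, losses from 36 to 1237, gains in both lines from 11 to 403, losses in both lines from 36 to 1043 and line differences from 289 to 4258. The lone sample is assumed to vary like the other groups. All 10 leading losses stayed called in each, and 9 or 10 of the 10 gains. Input higher ran from 1072 to 1398 and lower from 893 to 1149, and MEL1 alone had 1763 lower. AFP reversed to 6.88 with IP without input, where its abundance is not divided out. RBFOX2, ACADVL and RN7SL5P were called in every fit, the only 3 of the 69 called peaks chosen by the naming rule. VTN rose by 7.23 with IP without input. CHD3 was called in 14 of 30 alternatives, TRO at position 1251, EHMT2 and PRRC2A in 16 of 31 each.

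The depth of the MEL1 S4 IP limits what can be called lost there, since 23.7% and 21.4% of its peaks had no read. With 2 replicates per line and stage, replicate spread is poorly known. Peak sequences could not be examined without a genome.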

Other observations

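Restricting the members to peaks with a mean enrichment above 0, a choice made after the values were seen, leaves transcripts whose sites were bound by the antibody at 1 stage and less so at the other. Among losses, OXA1L, the insertase of the inner mitochondrial membrane, went from 2.85, 2.59, 1.66 and 2.03 at S0 to -0.87, -1.37, -0.03 and 0.60 at S4 at position 3001, with 15491 IP reads at S0 and 656 at S4. ROCK2, a kinase of the actin cytoskeleton, went from 3.27, 3.29, 1.84 and 3.04 to -0.20, 0.10, 0.99 and 1.15, and GSPT1, the translation termination factor eRF3a, from 3.34, 3.06, 2.60 and 2.61 to 0.24, 0.08, 1.21 and 1.08. At S6 the mean enrichment was 2.28 in OXA1L, 2.69 in ROCK2 and 3.06 in GSPT1. COIL, the marker protein of Cajal bodies, had a log2 change of -1.63 and stood at 1.44, 0.39, -0.14 and 0.52 over S0, S3, S4, S6.

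Among gains of this kind, APBA2, an adaptor that binds the amyloid precursor protein, had log2 changes of 2.60 in H1 and 2.34 in MEL1 at position 1951, and ERC1, a scaffold of the cell cortex, of 1.11 and 3.38 at position 1751. CEBPB, a basic leucine zipper factor, had log2 changes of 4.08 and 1.67 at position 1201, with an input change of 0.32 that did not pass the test (adjusted p = 0.425 in edgeR).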
